A study of Mus musculus with 8 samples.

Results

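The levels of 10 matrix genes were followed across SN4741 cells at 2 temperatures: *Sparc*, *Fn1*, *Postn*, *Fbn1*, *Thbs1*, *Thbs2*, *Tnc*, *Bgn*, *Dcn* and *Lum*. They were taken by gene symbol, 10 of the 31053 genes in the count tables, and all 10 symbols were found. They encode secreted glycoproteins and small proteoglycans of the extracellular matrix. SN4741 is a mouse line whose labels give its genotype as WT and its cells as neural precursors. It was derived from the embryonic substantia nigra of transgenic mice in which a tyrosine hydroxylase promoter drives a temperature-sensitive viral T antigen, which made it immortal. Single-cell RNA-seq was done on 4 libraries of cells grown at the permissive temperature (37 °C) in medium with 10% serum. The 4 others were of cells moved, 24 hours after passage, to the non-permissive temperature (39 °C) and 0.5% serum for 48 hours. Temperature and serum changed together and cannot be told apart. All cells came from 1 line, which the study describes as unstable and polyploid, and were trypsinized before capture. The labels do not say whether the libraries of a temperature came from separate cultures, so p-values measure the spread between libraries, which may be technical. In the comparisons between phases that spread was in effect shared over all genes.

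The matrix outside cells is built from fibres and from proteins that sit on them. Fibronectin and fibrillin form fibrils that cells attach to. Matricellular proteins such as SPARC, thrombospondins, tenascin C and periostin do not build fibres themselves but alter how cells hold on to them. Biglycan, decorin and lumican are small leucine-rich proteoglycans, short cores with repeats rich in leucine that bind collagen fibrils and growth factors. Fibroblasts and other mesenchymal cells are known for making most of these proteins.

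In the GRCm38 annotation each of the 10 is a protein-coding gene. *Sparc* (ENSMUSG00000018593) lies on the minus strand at chr11:55394500-55423183, *Fbn1* (ENSMUSG00000027204) on the minus strand at chr2:125300594-125507993, and *Bgn* (ENSMUSG00000031375) on the plus strand at chrX:73483602-73495933. *Fn1* (ENSMUSG00000026193) is on the minus strand at chr1:71585520-71653200 and *Thbs1* (ENSMUSG00000040152) on the plus strand at chr2:118111876-118127133. *Dcn* (chr10:97479609-97518143) and *Lum* (chr10:97565128-97572703) are near each other on the plus strand. *Postn* lies at chr3:54361109-54391037, *Thbs2* at chr17:14665500-14694235 and *Tnc* at chr4:63959785-64047015. *Fn1*, *Fbn1*, *Thbs1* and *Tnc* each overlap a gene on the other strand (*Apol7d*, *Gm9913*, *Gm29233* and *8030451A03Rik*), and whether counting used strand is not given in the sources used here.

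Promoters are shown for *Sparc* and *Fbn1*, which were lower at 39 °C, and for *Bgn*, which was higher. Each is the RefSeq window from 250 bases before to 50 after a start of the gene in RefSeq (GRCm38.p6), written 5′ to 3′ on the gene's strand. The RefSeq starts used for *Sparc* and *Fbn1* are not the gene ends given above, and both windows lie inside those genes. RefSeq windows were matched for 6 of the 10 genes (*Sparc*, *Postn*, *Fbn1*, *Thbs2*, *Tnc* and *Bgn*). Capitals mark a GC box, GGGCGG or its reverse complement.
Sparc, chr11:55420031-55420330, minus strand: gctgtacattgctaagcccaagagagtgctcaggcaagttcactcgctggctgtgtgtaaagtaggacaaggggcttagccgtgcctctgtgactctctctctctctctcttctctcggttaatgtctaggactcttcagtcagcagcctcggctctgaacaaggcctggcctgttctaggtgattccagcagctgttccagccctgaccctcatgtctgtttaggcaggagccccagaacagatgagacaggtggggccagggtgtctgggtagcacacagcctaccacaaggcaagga
Fbn1, chr2:125506389-125506688, minus strand: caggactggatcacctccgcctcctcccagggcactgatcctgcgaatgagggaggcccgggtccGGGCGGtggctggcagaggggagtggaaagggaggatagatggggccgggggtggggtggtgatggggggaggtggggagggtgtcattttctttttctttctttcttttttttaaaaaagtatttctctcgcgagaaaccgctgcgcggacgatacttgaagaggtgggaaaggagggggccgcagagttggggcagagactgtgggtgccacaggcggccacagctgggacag
Bgn, chrX:73483351-73483650, plus strand: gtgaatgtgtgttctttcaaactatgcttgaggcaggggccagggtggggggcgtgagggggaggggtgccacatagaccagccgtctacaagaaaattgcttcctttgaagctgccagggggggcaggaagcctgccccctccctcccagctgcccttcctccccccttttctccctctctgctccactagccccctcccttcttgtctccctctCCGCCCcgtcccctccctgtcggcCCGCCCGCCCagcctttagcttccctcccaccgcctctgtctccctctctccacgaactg
Both strands were searched for a TATA box (TATAAA), the GC box, a CCAAT box (CCAAT), an AP-1 site (TGANTCA), a TEAD site (GGAATG) and a CArG box. The *Bgn* window held 3 GC boxes, 2 of them overlapping, the last of which ended at the base before the start, and the *Fbn1* window held 1. The *Sparc* window held none of the 6 motifs. Over 32851 RefSeq windows of this length, 35.7% held a GC box, 13.6% a TATA box, 37.4% a CCAAT box, 7.81% an AP-1 site, 14.7% a TEAD site and 1.63% a CArG box. *Bgn* was 63.7% G or C, *Fbn1* 60.3% and *Sparc* 55.3%, where the median window was 52.7%. A match describes letters only.

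Per library, 985 to 3494 cells and 17166686 to 29633818 UMIs were kept, and the median kept cell had 6676 to 16665 UMIs. A UMI is a tag that marks 1 captured RNA molecule, so counts read from the 3′ end do not grow with gene length. Levels are given as CPM, UMIs per 1000000 UMIs in the sum of a library's cells after TMM scaling between libraries. Any pair of libraries shared at most 5 cell barcodes. Of 8 neural precursor markers, only *Nes* (467 CPM at 37 °C and 108 at 39 °C) and *Sox2* (55.4 and 76.5 CPM) had a mean over 1 CPM, and *Hes5* was at 0 in all 8 libraries. Of 10 fibroblast or mesenchymal markers, 8 had a mean over 1 CPM. Their summed level was 2115 to 2150 CPM at 37 °C and 1148 to 1184 CPM at 39 °C, lower where *Sparc*, *Fbn1* and *Thbs1* were lower. The collagen genes *Col1a1* (1027 and 575 CPM) and *Col1a2* (678 and 182 CPM) made up most of that difference. Means were also lower at 39 °C for *Prrx1* (217 and 187 CPM), *Pdgfrb* (80.7 and 71.6), *Twist2* (38.9 and 33.2) and *Col3a1* (11.9 and 1.01). *Twist1* (60.5 and 83.9 CPM) and *Snai2* (25.7 and 28.1 CPM) had higher means at 39 °C. The part of these markers in the results was not tested. Endothelial markers summed to 1.14 CPM at most, with *Cdh5* and *Cldn5* at 0. Pericyte markers summed to 26.9 to 38.4 CPM, astrocyte markers to 14.6 to 21.4, immune markers to 16.2 to 35.3 (mainly *Cd68*, with *Tyrobp* at 0) and neuron markers to 37.3 to 69.3.

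The 10 genes differed widely in level, in the same order of means at 37 °C and 39 °C. *Sparc* came first, followed by *Bgn*, *Fn1*, *Thbs1* and *Fbn1*, all over 50 CPM. *Tnc* had 1.77 CPM at 37 °C and 1.54 at 39 °C, and *Postn*, *Dcn*, *Thbs2* and *Lum* were under 1 CPM. *Dcn* and *Thbs2* were neighbours whose libraries overlapped at both temperatures. *Sparc* ranked 32nd and *Bgn* 117th by mean CPM among the 15810 genes tested.

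Of the 9 genes tested, 2 rose at 39 °C, *Bgn* and *Fn1*, and 3 fell, *Fbn1*, *Thbs1* and *Sparc*. *Postn*, *Thbs2*, *Tnc* and *Dcn* did not pass, and *Lum*, with 1 UMI, was not tested. All 5 that passed had groups of libraries that did not overlap. These counts stand against a broad background. Of the 15810 genes, 62% passed at an adjusted p under 0.05 in edgeR's quasi-likelihood test (31.5% higher and 30.5% lower), and 56.7% did not overlap (28.7% higher and 28% lower). The median log2 fold change was 0.21 over the 9 genes and 0.02 over all genes. That 0.21 is the value of *Fn1*, and 3 of the 5 genes that passed fell, so it does not show a shift of the 9 genes. None of the 10 passed the stricter limits of the study (adjusted p under 0.01 and a log2 change over 1.5 in size), which 5.83% of all genes passed.

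**Figure D1:**
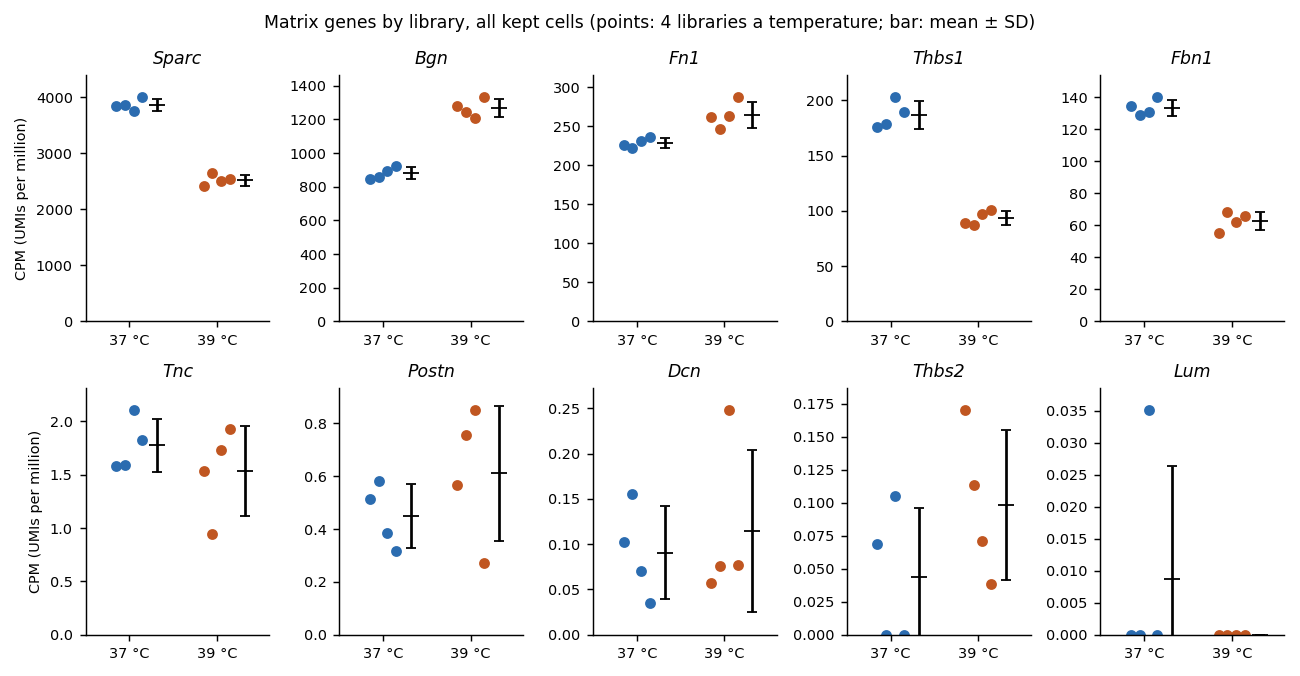
CPM of each gene (y axis, from 0, its own scale in each panel) in the 4 libraries at 37 °C (blue) and the 4 at 39 °C (orange), with the mean ± SD as a black bar that is not drawn below 0. Sparc, Thbs1 and Fbn1 are lower and Bgn and Fn1 higher in every library at 39 °C, and the points of the 5 genes in the lower row overlap.

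Fibrillin 1, encoded by *Fbn1*, is the main protein of microfibrils. *Fbn1* had 134, 129, 131 and 140.2 CPM in the libraries at 37 °C and 55.3, 68.1, 62.4 and 65.9 CPM in those at 39 °C. Every library at 39 °C was below every library at 37 °C. Its mean fell from 134 ± 5.04 to 62.9 ± 5.58 CPM (n = 4, SD), which on the log2 scale was a change of -1.08 ± 0.057 (SE, adjusted p = 3.83e-12).

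*Fn1* encodes fibronectin, which integrins bind and on which other matrix proteins assemble. Its libraries stood at 226, 222, 231 and 236 CPM at 37 °C and 262, 246, 263 and 287 CPM at 39 °C. The groups did not overlap, but the gap between the highest at 37 °C and the lowest at 39 °C was small. The rise from 229 ± 5.92 to 264 ± 17.1 CPM (SD, n = 4) was the smallest of the 5 changes, with a log2 fold change of 0.21 ± 0.051 (SE, adjusted p = 0.00142).

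*Sparc* encodes osteonectin, a collagen-binding glycoprotein and the most abundant of the 10. It stood at 3847, 3864, 3745 and 4004 CPM at 37 °C and at 2407, 2643, 2498 and 2539.9 CPM at 39 °C. The libraries of a temperature lay close together and far from those of the other. The mean fell from 3865 ± 106 to 2522 ± 97.6 CPM (SD, n = 4), 0.653-fold, with a log2 fold change of -0.62 ± 0.057 (SE, adjusted p = 1.40e-08).

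Thrombospondin 1, the product of *Thbs1*, binds the cell through CD47 and integrins and can activate latent TGF-β. *Thbs1* had 176, 179, 203 and 189 CPM at 37 °C and 88.7, 87.2, 96.9 and 101 CPM at 39 °C, with no overlap. Its mean fell from 187 ± 12.4 to 93.4 ± 6.56 CPM (n = 4, SD), which on the log2 scale was a change of -0.998 ± 0.058 (SE, adjusted p = 1.51e-11). *Thbs1* UMIs were 0.817 ± 0.0438 of *Fn1* UMIs in the same library at 37 °C and 0.353 ± 0.0124 at 39 °C (SD, n = 4).

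*Bgn* encodes biglycan. It was read at 848, 859, 893 and 923 CPM at 37 °C and at 1279, 1243, 1208 and 1333 CPM at 39 °C. All 4 libraries at 39 °C were above all 4 at 37 °C. The mean rose from 881 ± 34.03 to 1266 ± 53.5 CPM (SD, n = 4), with a log2 fold change of 0.52 ± 0.054 (SE, adjusted p = 6.80e-08). As *Sparc* fell and *Bgn* rose, *Sparc* went from 4.39 ± 0.157 to 2.00 ± 0.120 times the *Bgn* UMIs of its library (SD, n = 4). *Sparc* held 73.0% ± 0.744 of the UMIs of the 10 genes at 37 °C and 59.9% ± 1.42 at 39 °C, and *Bgn* 16.6% ± 0.435 and 30.1% ± 1.12.

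The other matricellular genes were rare. *Tnc*, for tenascin C, had 46, 41, 60 and 52 UMIs in the libraries at 37 °C and 27, 25, 49 and 50 at 39 °C. *Postn*, for periostin, had 15, 15, 11 and 9 UMIs at 37 °C and 10, 20, 24 and 7 at 39 °C. Both overlapped between temperatures. The log2 fold change of *Tnc* was -0.21 (95% interval -0.58 to 0.17, adjusted p = 0.361) and that of *Postn* 0.47 (-0.18 to 1.11, adjusted p = 0.230), intervals that hold changes in either direction. *Postn* passed without replicate 4 at 39 °C (0.72, adjusted p = 0.0410). *Thbs2* had 2, 0, 3 and 0 UMIs at 37 °C and 3, 3, 2 and 1 at 39 °C, too few to show a difference at this depth (0.97, -0.64 to 2.58, adjusted p = 0.323).

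Decorin and lumican, which are abundant in many connective tissues, were close to absent from the counts. *Dcn* had 3, 4, 2 and 1 UMIs at 37 °C and 1, 2, 7 and 2 at 39 °C. Pooled over libraries this was 0.0883 UMIs per 1000000 at 37 °C (exact Poisson 95% interval 0.0424 to 0.162) and 0.123 at 39 °C (0.0637 to 0.215). Its log2 fold change was 0.43 (-0.81 to 1.67, adjusted p = 0.581), so a difference was not detectable at this depth. *Lum* had 1 UMI, in replicate 3 at 37 °C, and 0 of 97313978 UMIs at 39 °C, which allows up to 0.0308 per 1000000, or 3 counts. These intervals and floors cover counting error only. Of the 3 small proteoglycans here, *Bgn* thus carried nearly all UMIs.

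The cultures differed in cell cycle phase, so the comparison was repeated within cells assigned to G1. Phases came from scores of S and G2M genes, and a cell with no positive score was called G1. G1 cells made up 20.9% ± 3.12 of cells at 37 °C and 80.8% ± 1.54 at 39 °C (SD, n = 4). That was with all libraries scored together, which gave 349 to 619 G1 cells a library at 37 °C and 810 to 2749 at 39 °C. Scoring each library alone gave 613 to 976 and 558 to 1767, so the temperatures differed less in phase. The comparisons between phases and the interaction below were not repeated with that scoring. The call cuts a continuous score, and 10.9% to 17.9% of a library's cells had a higher score within 0.05 of the limit. RNA free in the droplets may enter these calls and all counts. With a single line there is no cell type without the genes to measure it by, and its part was not tested.

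Within G1 cells, *Fbn1*, *Thbs1* and *Sparc* were again lower and *Bgn* again higher at 39 °C, while *Fn1* no longer differed by the test. Of 14626 genes tested in G1 cells, 45.4% passed (24% higher and 21.4% lower), and 42.6% did not overlap between temperatures (23.5% higher and 19.1% lower). The 4 genes that passed did not overlap, and none passed the study's stricter limits, which 2.36% of genes did. The median log2 fold change was -0.52 over the 9 genes tested and 0.04 over all genes. That -0.52 is the value of *Postn*, a rare gene that did not pass, so it does not show a shift of the 9 genes.

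*Sparc* in G1 cells stood at 4149, 4205, 3898 and 4137 CPM at 37 °C and at 2444, 2659, 2511 and 2566 CPM at 39 °C. Its log2 fold change was -0.69 ± 0.058 (SE, adjusted p = 1.23e-09). *Fbn1* went from 146 ± 5.24 to 65.3 ± 5.23 CPM (n = 4, SD), which on the log2 scale was a change of -1.16 ± 0.059 (SE, adjusted p = 2.93e-13). For *Thbs1* the change was -1.03 ± 0.059, from 190.5 ± 10.4 to 92.8 ± 7.02 CPM (adjusted p = 2.21e-12). *Bgn* rose by 0.43 ± 0.057 on the log2 scale, from 963 ± 50.04 to 1297 ± 57.4 CPM (adjusted p = 1.63e-06). Each of these changes kept the direction it had over all cells.

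*Fn1* in G1 cells had 253, 264, 296 and 296 CPM at 37 °C and 276, 253, 272 and 297 CPM at 39 °C. The 2 groups covered the same range. Its log2 fold change was -0.01 (95% interval -0.13 to 0.11, adjusted p = 0.887), and the upper end of that interval is below the change seen over all cells. Its sign in G1 cells turned in 4 of 17 alternatives (phases scored per library, or without replicate 3 or 4 at 37 °C or replicate 2 at 39 °C), between -0.11 and 0.08. With *Postn* the sign also turned, from 0.47 over all cells to -0.52 in G1 cells (-1.35 to 0.30, adjusted p = 0.335), with neither passing.

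**Figure D2:**
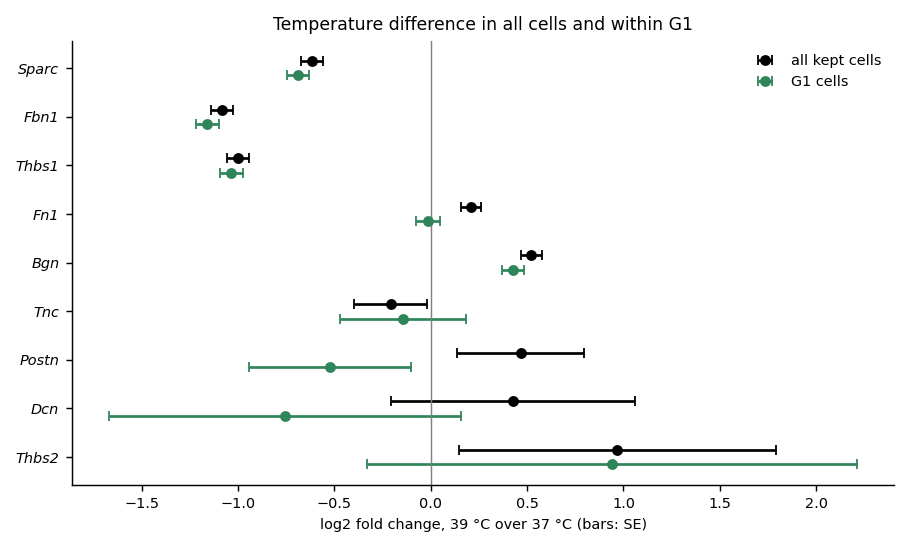
Log2 fold change of 39 °C over 37 °C (x axis, bars show the SE) for the 9 genes tested, over all kept cells (black) and over G1 cells (green). Sparc, Fbn1 and Thbs1 lie left of 0 and Bgn right of it in both, while Fn1 moves from 0.21 to -0.01, and the 4 rare genes have wide bars.

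The genes were then compared between phases of the same library. Cycling cells (S and G2M together) were set against G1 cells. The library was a term in the fit, so each library serves as its own control. In this fit, also used for the interaction below, p-values were close to the normal tail of the difference over its SE. The spread was thus in effect shared over genes, and these p-values do not measure a gene's own spread between its 4 libraries. Of 14745 genes, 43.3% passed at 37 °C (23.5% higher and 19.8% lower in cycling cells) and 41.2% at 39 °C (19.2% higher and 22% lower). At 37 °C 5 of the 8 genes tested were lower in cycling cells (*Fn1*, *Fbn1*, *Bgn*, *Sparc* and *Postn*) and none was higher. At 39 °C 4 were lower (*Fn1*, *Fbn1*, *Bgn* and *Postn*) and *Thbs1* was higher. Median UMIs per cell were 8773 to 12645 in G1 and 10054 to 16035 in cycling cells at 37 °C, and 6840 to 16960 and 6225 to 16044 at 39 °C.

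*Fn1* showed the clearest phase difference of the 5 common genes. At 37 °C its mean was 277 CPM in G1 and 222 CPM in cycling cells. The log2 difference was -0.32 ± 0.028 (SE, adjusted p = 8.67e-29), lower in 4 of 4 libraries, which ran from -0.41 to -0.18. At 39 °C it was -0.20 ± 0.0295 (adjusted p = 7.87e-11), again in 4 of 4. *Bgn* differed by -0.13 ± 0.019 at 37 °C (adjusted p = 1.91e-11) and -0.09 ± 0.019 at 39 °C (adjusted p = 3.03e-06), and *Fbn1* by -0.14 ± 0.035 (adjusted p = 0.000276) and -0.20 ± 0.052 (adjusted p = 0.000392). All 4 libraries of each temperature went that way for both genes.

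*Sparc* and *Thbs1* did not follow that pattern at 39 °C. *Sparc* was lower in cycling cells at 37 °C by 0.08 ± 0.015 on the log2 scale (adjusted p = 5.56e-07, lower in 4 of 4), and at 39 °C its difference was 0.03 (95% interval -0.01 to 0.06, adjusted p = 0.193). *Thbs1* had a difference of -0.01 at 37 °C (-0.08 to 0.05, adjusted p = 0.774). At 39 °C it was higher in cycling cells by 0.13 ± 0.042 (adjusted p = 0.00623, 3 of 4 libraries), with libraries from -0.03 to 0.26. The *Thbs1* call was lost without replicate 1 (0.10, adjusted p = 0.0699) or replicate 4 at 39 °C (0.11, adjusted p = 0.0743). *Fbn1* at 37 °C lost its call without replicate 1 at 37 °C (-0.09, adjusted p = 0.0708), and *Sparc* without replicate 2 at 37 °C (-0.04, adjusted p = 0.0772).

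Whether the phase difference itself changed with temperature was tested as an interaction, which 15.9% of genes passed (5.26% higher and 10.6% lower). It passed for *Sparc* (0.11 ± 0.022, adjusted p = 2.36e-05), *Thbs1* (0.14 ± 0.052, adjusted p = 0.0423) and *Fn1* (0.12 ± 0.041, adjusted p = 0.0289), all higher. The interaction calls of *Fn1* and *Thbs1* were each lost in 7 of 12 alternatives, and that of *Sparc* in none of 12. *Bgn* (0.04, adjusted p = 0.374) and *Fbn1* (-0.06, adjusted p = 0.602) did not pass, though *Bgn* passed with RLE factors (0.08, adjusted p = 0.0308), with library totals alone (0.15, adjusted p = 1.22e-06) and with edgeR's own expression filter (0.09, adjusted p = 0.0163). The share of interaction calls that were higher was 33.1%, and 71.3% with library totals alone.

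Splitting cycling cells into S and G2M showed where levels were lowest. In G2M cells *Thbs1* had 145 ± 16.3 UMIs per 1000000 at 37 °C, against 215 ± 15.9 in S and 192 ± 11.9 in G1 (SD, n = 4). *Sparc* at 39 °C had 2819 ± 108 in S and 2064 ± 317 in G2M, against 2525 ± 73.1 in G1. All 5 common genes had their lowest mean in G2M at both temperatures. G2M held 2.84% to 5.18% of cells at 39 °C, as few as 28 cells in replicate 1. These values are a description, with no test.

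**Figure D3:**
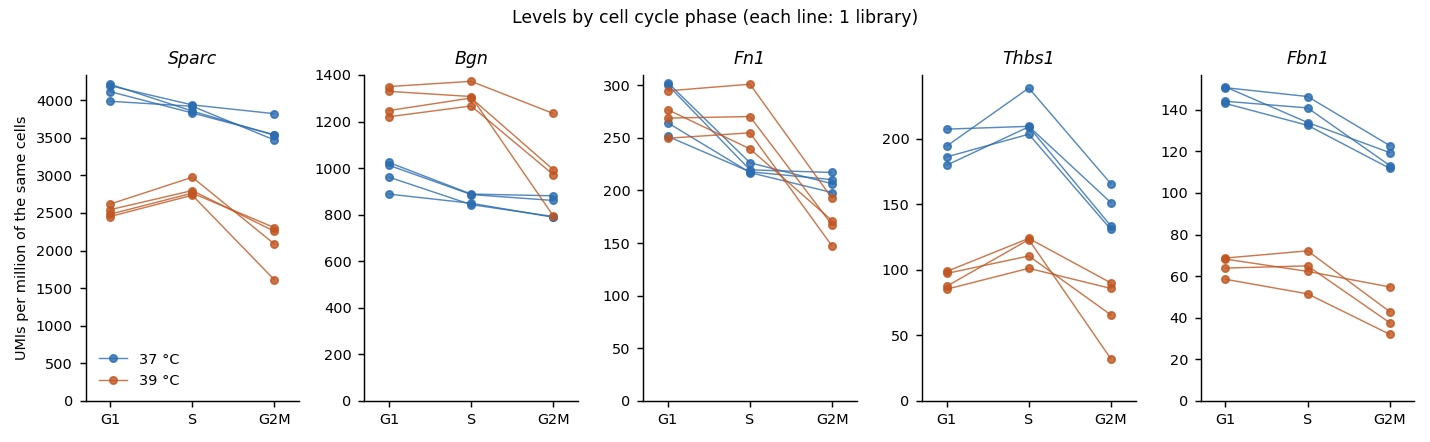
UMIs per 1000000 of the same cells (y axis, from 0) in G1, S and G2M cells, with 1 line for each library at 37 °C (blue) and 39 °C (orange). Every line ends lower in G2M than it was in S, and Fn1 at 37 °C already drops from G1 to S.

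*Postn* UMIs were gathered in G1 cells. At 37 °C there were 23 *Postn* UMIs among G1 cells (1.11 per 1000000) and 27 among cycling cells (0.292 per 1000000), lower in cycling cells in 4 of 4 libraries (log2 difference -1.83 ± 0.48, adjusted p = 0.000552). At 39 °C all 61 UMIs lay in G1 cells and 0 of 17540047 UMIs in cycling cells. Against a floor of 3 counts over the group, the pooled level in G1 cells was 4.47-fold higher. That figure pools libraries and takes each UMI as a separate count, so it is not a lower bound. Those 61 UMIs came from 28 cells and were unevenly held. The cell with most *Postn* held 8 of the 10 UMIs in replicate 1, 9 of the 20 in replicate 2, 9 of the 24 in replicate 3 and 1 of the 7 in replicate 4.

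Across cells, a library's level can be spread widely or held by few cells. *Sparc* was seen in 98.96% of the 18351 kept cells, *Bgn* in 97.4%, *Fn1* in 68.8%, *Thbs1* in 51.02% and *Fbn1* in 45.1%. The other 5 were each seen in under 2%. Depth per cell differed between libraries, so each cell was thinned to 5000 UMIs, leaving out 668 shallower cells at 37 °C and 1668 at 39 °C.

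At equal depth, *Fbn1* was seen in 37.9% ± 2.17 of cells at 37 °C and 21.6% ± 1.104 at 39 °C (SD, n = 4). *Thbs1* went from 46.7% ± 2.10 to 27.6% ± 1.76. Both ranges of libraries were apart. Without thinning the shares were 60.3% and 34.2% for *Fbn1*, and 66.7% and 39.9% for *Thbs1*. The 10% of cells with most *Thbs1* held 46.5% ± 1.57 of its thinned UMIs at 37 °C and 62.1% ± 3.50 at 39 °C. For *Fbn1* the shares were 46.5% ± 1.99 and 60.4% ± 1.93. Such a share also rises when the mean falls, as both means did, and the part of that was not tested.

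*Fn1* was seen in 54.6% ± 1.53 of thinned cells at 37 °C and 55.3% ± 2.14 at 39 °C, ranges that overlapped, and unthinned in 72.8% and 68.3%. Its mean per thinned cell was 1.05 ± 0.030 UMIs at 37 °C and 1.35 ± 0.097 at 39 °C. The difference thus lay in the number of UMIs per cell rather than in the share of cells with 1. The variance over the mean, which is 1 for counting noise alone, was 1.72 ± 0.186 and 2.77 ± 0.233, with no overlap.

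*Bgn* and *Sparc* also varied more between cells at 39 °C. For *Bgn* the variance over the mean was 1.81 ± 0.124 at 37 °C and 3.08 ± 0.125 at 39 °C, while its thinned mean went from 4.44 ± 0.168 to 6.41 ± 0.272 UMIs. For *Sparc* it was 3.89 ± 0.188 and 5.54 ± 0.360, although its mean went from 18.5 ± 0.640 down to 12.4 ± 0.501 UMIs. The 10th percentile of *Sparc* over cells was 8.25 ± 0.5 UMIs at 37 °C and 3.60 ± 0.490 at 39 °C. In these 2 genes and *Fn1* the temperatures stood apart on this measure, library by library. In *Thbs1* (2.39 and 2.40) and *Fbn1* (1.44 and 1.47) their libraries overlapped. The measure depends on the mean, however, and the thinned means of these 2 fell, from 0.960 to 0.481 UMIs for *Thbs1* and from 0.574 to 0.293 for *Fbn1*. Their overlap therefore does not show that the spread relative to the mean stayed the same. These are descriptions, with no test.

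**Figure D4:**
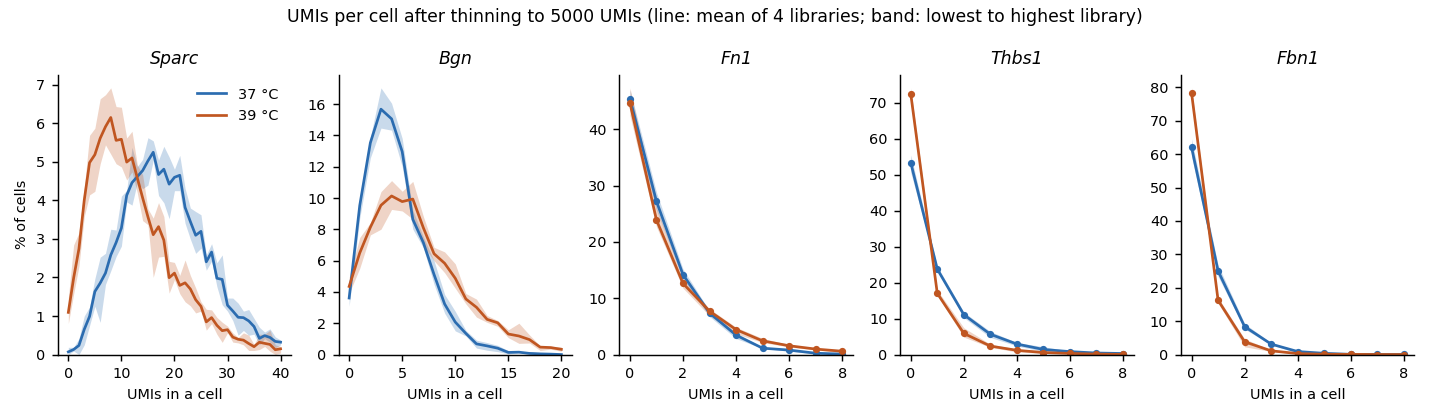
Percent of cells (y axis) with each number of UMIs of a gene (x axis) after thinning to 5000 UMIs a cell, as the mean of the 4 libraries at 37 °C (blue) and 39 °C (orange) with a band from the lowest to the highest library. The Sparc curve lies further left at 39 °C, the Bgn curve is broader at 39 °C, and more cells have 0 UMIs of Thbs1 and Fbn1 at 39 °C.

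The rare genes were seen in few cells. *Tnc* was seen in 180 cells at 37 °C and 133 at 39 °C, mostly with 1 UMI. *Postn* was seen in 41 and 28 cells, *Dcn* in 8 and 11, and *Thbs2* in 4 and 9. *Postn* and *Tnc* were together in 4 cells at 37 °C and 1 at 39 °C. The 1 cell with *Lum* and 1 of the 8 with *Dcn* at 37 °C also held *Tnc*, and no other pair of the 5 shared a cell. Of the *Postn* cells, 20 of 41 at 37 °C and 28 of 28 at 39 °C were called G1, where 20.9% and 80.4% of all kept cells were.

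Among the 5 common genes of the 10, *Sparc* varied across cells most closely with *Bgn* and *Fbn1* by the mean over 8 libraries. The mean Pearson r over 8 libraries, on the log of counts per 10000, was 0.313 for *Sparc* and *Fbn1* (0.246 to 0.356) and 0.318 for *Sparc* and *Bgn* (0.152 to 0.508). The pair *Sparc* and *Bgn* had a mean r of 0.191 at 37 °C and 0.444 at 39 °C. For *Sparc* and *Fn1* it was 0.234 and 0.189, so at 37 °C *Fn1* was closer to *Sparc* than *Bgn* was. *Fn1* and *Fbn1* had 0.244, and *Thbs1* had 0.0637 with *Fn1* and 0.0509 with *Fbn1*. Cells of a library share its depth, and r with the log of UMIs per cell was 0.234 to 0.388 for *Sparc*, 0.149 to 0.362 for *Fbn1*, -0.0391 to 0.178 for *Bgn* and -0.00474 to 0.0925 for *Thbs1*. For *Fn1* it was 0.263 to 0.335 at 37 °C and 0.0898 to 0.116 at 39 °C.

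Among 8422 genes seen in at least 10% of cells, the closest to *Sparc* were *Col1a1*, a chain of type I collagen (mean r 0.517 over 8 libraries), *Tpm1*, an actin-binding tropomyosin (0.460), and *Anxa2*, a membrane-binding annexin (0.402). *Col1a1* was also first for *Fbn1* (0.332), followed by *Sparc* and *Nes*, the intermediate filament nestin (0.274). For *Fn1* the closest were *Fbn1*, *Basp1* (0.235) and *Col1a1* (0.235), none above 0.25. *Thbs1* went most with *Inhba*, the activin subunit βA (0.342), with *Tmsb4x*, the actin-binding thymosin β4 (0.300), and with the actin gene *Actb* (0.254). *Bgn* went most with *Tmsb4x* (0.330), *Sparc* and the galectin *Lgals1* (0.272). Within G1 cells the partners of *Fn1* ranked 6th (*Fbn1*), 4th (*Basp1*) and 11th (*Col1a1*). There *Nes* ranked 7th for *Fbn1*, *Actb* 5th for *Thbs1* and *Lgals1* 4th for *Bgn*, while the others stayed among the first 3. All the partners named fell at 39 °C over all cells, the reverse of *Bgn* and *Fn1*. The log2 fold change was -0.84 for *Col1a1*, -0.78 for *Tpm1*, -1.12 for *Anxa2*, -2.11 for *Nes* and -1.47 for *Basp1*. It was -0.61 for *Inhba*, -0.37 for *Tmsb4x*, -1.23 for *Actb* and -1.37 for *Lgals1*.

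Genes of related families were given by lists. Of 5 tested genes in the SPARC family beside *Sparc*, 3 rose and 1 fell over all cells. *Fstl1*, the most abundant of them, fell with *Sparc*, from 248 ± 1.95 to 148 ± 5.98 CPM (log2 fold change -0.74, adjusted p = 3.58e-11). Of 3 other thrombospondins and tenascins tested, none passed in either direction. The median log2 fold change was 1.03 in the first list and -0.27 in the second, beside 0.02 over all genes. In G1 cells the SPARC family had 0 higher and 1 lower of 5 tested, with a median of 1.14. The loss of calls there thus does not show that the differences were smaller.

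The other small leucine-rich proteoglycans were split, 4 higher and 4 lower of 11 tested (median -0.47). *Ogn*, osteoglycin, fell from 47.2 ± 4.31 to 22.9 ± 3.19 CPM (adjusted p = 1.11e-09) and *Omd*, osteomodulin, from 65.3 ± 5.69 to 47.1 ± 3.75 CPM (adjusted p = 2.38e-06). *Prelp*, a collagen-binding member of the family, rose from 27.7 ± 3.50 to 44.1 ± 2.48 CPM (adjusted p = 7.65e-08). Within G1 cells *Ogn* fell by 1.80 and *Omd* by 0.91 on the log2 scale, and *Prelp* stood at 48.1 and 49.1 CPM (adjusted p = 0.848). *Bgn* alone of the 4 was over 100 CPM.

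Genes of microfibrils and elastic fibres, which fibrillin 1 organises, counted 4 higher and 5 lower of 15 tested over all cells (median -0.01), and 1 higher and 7 lower of 13 in G1 cells (median -0.65). *Emilin1* (-1.13, adjusted p = 4.67e-11), *Efemp2*, which helps assemble elastic fibres (-0.84, adjusted p = 1.83e-10), and *Ltbp1*, which tethers latent TGF-β to microfibrils (-0.77, adjusted p = 1.13e-09), fell beside *Fbn1*. Each also fell within G1 cells (-1.33, -0.81 and -0.65).

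Of 8 other secreted glycoproteins tested, 6 rose and 2 fell (median 0.92). *Ecm1* rose from 221 ± 7.99 to 563 ± 26.8 CPM (adjusted p = 3.69e-14), *Spp1*, osteopontin, from 194 ± 20.4 to 459 ± 35.8 CPM (adjusted p = 9.56e-12) and *Mgp*, matrix Gla protein, from 50.6 ± 5.68 to 89.6 ± 12.6 CPM (adjusted p = 6.07e-08). In G1 cells 3 of the 8 rose and 2 fell, and *Mgp* stood at 90.7 and 94.1 CPM (adjusted p = 0.623). The large proteoglycan *Vcan*, versican, was the 1 hyalectan tested and rose from 138 ± 13.4 to 321 ± 10.2 CPM (adjusted p = 1.46e-12).

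Among receptors that bind the products of the 10 genes, 8 rose and 5 fell of 16 tested (median 0.32). *Lrp1*, which takes up thrombospondin (0.94, adjusted p = 3.87e-12), *Itgb5*, an integrin chain (0.75, adjusted p = 3.59e-11), and *Egfr*, which decorin and tenascin C can bind (0.73, adjusted p = 2.58e-11), rose. Of 7 TGF-β ligands and receptors, 4 rose and 2 fell (median 0.18). *Tgfb2* fell from 162 ± 9.77 to 74.9 ± 2.72 CPM (-1.12, adjusted p = 4.82e-13) and *Tgfbr2* fell by 0.58 on the log2 scale (adjusted p = 7.13e-09), while *Tgfb1* rose by 0.44 (adjusted p = 5.94e-08). Past the study's limits over all cells, each higher at 39 °C, were 5 genes of these lists that are named after their values were seen. They were *Sparcl1* (2.50 ± 0.64, SE), *Spock2* (2.304 ± 0.56), *Ltbp2* (1.62 ± 0.28), *Matn4* (1.52 ± 0.22) and *Itga9* (2.54 ± 0.14). Each was under 20 CPM at both temperatures. In G1 cells no gene of these lists passed those limits as higher, and 1 other small leucine-rich proteoglycan and 1 receptor passed them as lower.

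**Figure D5:**
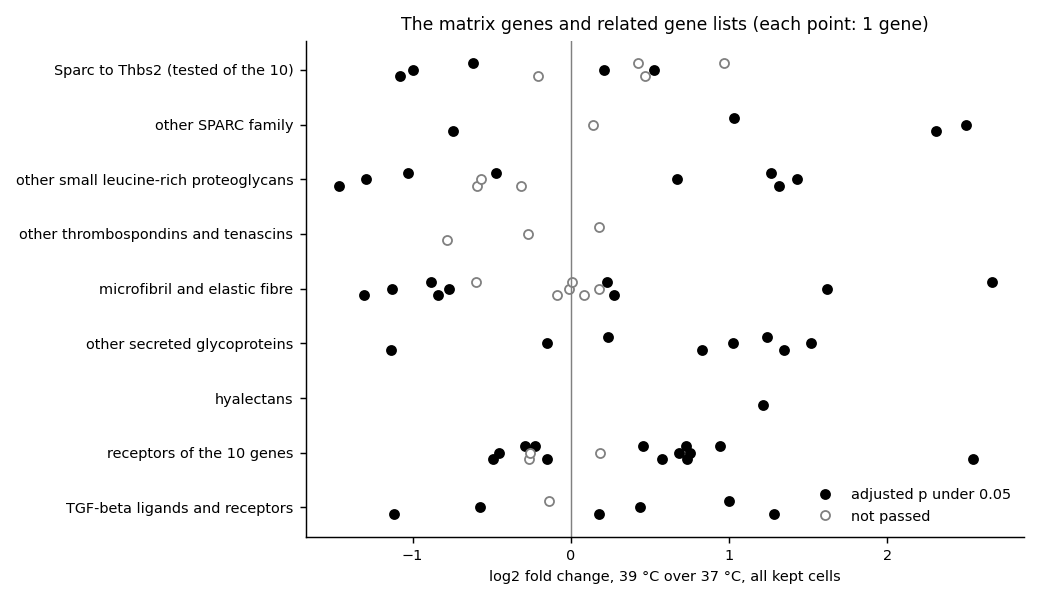
Log2 fold change of 39 °C over 37 °C over all kept cells (x axis) for each tested gene (1 point) of the 10 matrix genes and 8 related lists (y axis), filled where the adjusted p was under 0.05. Every list with more than 3 tested genes has filled points on both sides of 0.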

How the data were processed

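Chromium 3′ libraries were sequenced from 8 samples of SN4741 cells, 4 at each temperature. The authors deposited raw counts of UMIs, 1 matrix of genes by cells per library, made with Cell Ranger 3.0.1 on the mm10 build per the submitters' processing notes. The limits were 15% mitochondrial UMIs, at most 6000 genes and at least 200 genes, and 774 of 19125 cells failed them (334, 440 and 29, some on several grounds). No doublet caller was run. Cell cycle phases were scored with Seurat 5.3.0.

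Counts were summed per library, over all kept cells, over G1 cells, or over G1 and cycling cells, because the library and not the cell is the replicate. Tests covered the genes averaging 1 or more counts a library and used edgeR 4.0.16 (R 4.3.3, TMM factors, quasi-likelihood test, Benjamini-Hochberg over all genes tested, adjusted p under 0.05). The steps were tested on simulated data. Related genes were named as the up to 3 per list with the largest log2 change among those with an adjusted p under 0.05 and at least 20 CPM in the higher group. Partners were the 3 genes of highest mean r for each of the 10 genes seen in at least 20% of cells, among genes seen in at least 10%. Alternatives were RLE factors, library totals, DESeq2 1.42.0, other gene and cell filters, thinning, equal cells, phases scored per library, a replicate block and each library left out. The genes and lists were chosen with earlier results of these data known.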

Additional observations from a re-analysis of the deposited data

Results flagged for a closer look

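Among 37 groups of 4 libraries checked for a value far from the others, 3 had such a value. Chance gives about 1 in 20 for values on a continuous scale. A group with a single UMI in 1 library is flagged by construction, as were *Lum* and *Thbs2* here, so that rate does not apply to them. *Dcn* over all cells stood at 0.248 CPM in replicate 3 at 39 °C, where the others had 0.0567 to 0.0771. *Lum* over all cells stood at 0.0351 CPM in replicate 3 at 37 °C, its only UMI. *Thbs2* in G1 cells stood at 0.198 CPM in replicate 3 at 37 °C, also 1 UMI, where the others had 0. Each of these rests on 1 to 7 UMIs.

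The temperature difference was not the same in cycling and in G1 cells, by the interaction in edgeR's quasi-likelihood test, for *Sparc* (0.11 on the log2 scale, adjusted p = 2.36e-05), *Fn1* (0.12, adjusted p = 0.0289) and *Thbs1* (0.14, adjusted p = 0.0423). Median UMIs per cell differed between phases at 37 °C more than at 39 °C, and their part in these values was not tested.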

How the results depend on the processing

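The counts of genes that rose or fell between temperatures, over all cells and in G1 cells, did not move under any of 19 and 17 alternatives by over 1.5 times, and no called value changed sign. In cycling against G1 cells at 39 °C, 1 gene was higher, against 2 with RLE factors, 2 with library totals and 2 with edgeR's expression filter, where *Sparc* was added (0.04, adjusted p = 0.0332; 0.08, adjusted p = 7.92e-06; 0.06, adjusted p = 0.00214). Leaving out each library gave 0 to 1, with 0 without replicate 1 or 4 at 39 °C. In the interaction 3 genes were higher, against 1 with cells thinned to 5000 UMIs and 1 to 2 with each library left out. The *Fn1* call was lost without replicate 2, 3 or 4 of either temperature, that of *Thbs1* without replicate 1, 2 or 4 of either, and both with thinning (adjusted p = 0.125 and 0.0660). The cause was not tested. Library totals moved the median interaction of all genes from -0.05 to 0.06. Interaction calls over all genes numbered 2345, of which 33.1% were higher, and 1068 with thinning. The share higher was 47.3% with RLE factors, 50.9% with edgeR's filter and 71.3% with library totals. At 37 °C the share of phase calls that were higher went from 54.2% to 43.4% with library totals. In G1 cells the *Fn1* difference changed sign in 4 of 17 alternatives (-0.11 to 0.08). Shares of cells with a UMI moved with the depth of thinning.

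Replicate numbers did not pair the libraries. Same-numbered libraries' deviations correlated at -0.117, -0.116, -0.0906 and 0.284 over all cells. A replicate block gave 9617 calls over all genes in place of 9803, and 6456 in place of 6642 in G1 cells. With the block 2 of the 10 genes rose and 3 fell over all cells, and 1 rose and 3 fell in G1 cells, so it changed no call among them. Genes with few UMIs (*Postn*, *Thbs2*, *Tnc*, *Dcn* and *Lum*) are limited by depth.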
